A study of Mus musculus with 57 samples.

Results

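Brown adipose tissue burns fat to produce heat, and it acquires this role through transcription factors that switch on the thermogenic and lipid-handling genes of the brown adipocyte. In the interscapular depot the cells descend from somitic mesoderm that also gives rise to skeletal muscle and dermis, and Prdm16 and Ebf2 are known for steering these cells to the brown fat fate. Described here are 10 genes that mark this identity, taken by name from the 56860 genes in the raw count and TPM tables of mouse embryos that carried or lacked a working Hoxa5 gene. The regulators are Prdm16, a zinc finger cofactor of the brown fat program, Ebf2, an early B cell factor that marks committed brown fat precursors, Pparg, the nuclear receptor required to make any adipocyte, Ppara, the nuclear receptor of fatty acid oxidation, Ppargc1a, the coactivator of mitochondrial biogenesis, and Zfp516, a zinc finger factor that activates Ucp1. The effectors are Ucp1, the mitochondrial uncoupling protein that makes heat, Cidea, a lipid droplet protein, Elovl3, an elongase of long-chain fatty acids, and Dio2, the deiodinase that makes active thyroid hormone inside the cell.

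All embryos were kept on the 129/Sv background and were either wild type (wt) or Hoxa5-/-, homozygous for the null allele Hoxa5tm1Rob in every cell. This allele carries a neomycin cassette within the homeobox, so that reads from the remaining Hoxa5 exons are still counted. RNA came from the interscapular depot (iBAT) at E18.5, from somites at E10.5 and E12.5, from diaphragm and trachea at E15.5 and from lung at E12.5 and E15.5. There were 5 libraries per genotype for iBAT, 4 wt and 3 Hoxa5-/- for somites at E10.5, and 4 per genotype elsewhere, 57 in all. The somite samples were trunk segments from C3 to T2 without neural tube, forelimbs and thoracic organs, so they held more tissues than the precursors of brown fat.

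Proximal promoters of 6 of the 10 genes were found in RefSeq on GRCm38.p6, with 8 start sites between them, and Cidea, Ebf2, Elovl3 and Zfp516 had no entry. Shown are the 250 bases before the start of Ucp1 and Dio2, effectors with a large difference between iBAT and somites, of Pparg at the second of its 3 starts, and of Prdm16. They lie at chr8:83290098-83290347 on the plus strand, chr12:90739039-90739288 on the minus strand, chr6:115362099-115362348 on the plus strand and chr4:154636874-154637123 on the minus strand. Each is printed 5′ to 3′ with the start site next after its last base, and capitals mark matches on either strand to 5 motifs spelled out after the sequences.
Ucp1: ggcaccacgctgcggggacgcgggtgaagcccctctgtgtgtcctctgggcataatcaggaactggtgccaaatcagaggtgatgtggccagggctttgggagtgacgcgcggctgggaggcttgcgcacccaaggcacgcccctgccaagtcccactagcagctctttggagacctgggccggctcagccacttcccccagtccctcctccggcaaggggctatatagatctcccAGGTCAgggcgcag
Dio2: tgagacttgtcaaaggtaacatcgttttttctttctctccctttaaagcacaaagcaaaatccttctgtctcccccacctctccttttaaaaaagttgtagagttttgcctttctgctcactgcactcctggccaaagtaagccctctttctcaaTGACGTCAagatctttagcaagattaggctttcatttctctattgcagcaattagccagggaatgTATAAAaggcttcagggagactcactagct
Pparg: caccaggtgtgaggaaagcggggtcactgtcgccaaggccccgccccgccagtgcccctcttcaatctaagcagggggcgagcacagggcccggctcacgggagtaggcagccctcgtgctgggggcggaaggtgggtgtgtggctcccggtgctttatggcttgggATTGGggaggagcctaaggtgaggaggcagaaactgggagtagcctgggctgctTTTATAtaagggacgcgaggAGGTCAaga
Prdm16: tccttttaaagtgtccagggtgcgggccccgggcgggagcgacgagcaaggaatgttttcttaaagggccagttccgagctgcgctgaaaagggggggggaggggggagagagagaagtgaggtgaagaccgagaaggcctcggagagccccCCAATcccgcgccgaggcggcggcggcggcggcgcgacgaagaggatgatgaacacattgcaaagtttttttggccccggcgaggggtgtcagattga
The capitals in the Ucp1 sequence are AGGTCA, the half-site of nuclear receptors such as PPARs, with its first base 14 bases before the start. In Dio2 they are TGACGTCA, the cyclic AMP response element, at 95 bases and TATAAA at 30 bases before the start. The Pparg sequence holds AGGTCA at 9 bases, the reverse complement of TATAAA at 29 bases and that of CCAAT at 83 bases before the start, and the Prdm16 sequence holds CCAAT at 98 bases. Among 32851 promoters of this length, the cyclic AMP element TGACGTCA was found on either strand in 1.55%, the TATA box TATAAA in 12.4%, the nuclear receptor half-site AGGTCA in 14%, the CCAAT box in 33.8% and the core of the Ebf site, CCCNNGGG, in 11.8%. A CCCNNGGG match was found in the Ppara promoter and none of the 5 motifs in that of Ppargc1a. These matches describe letters in a window and are not evidence of binding.

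On GRCm39, the build of the counts, Ucp1 (ENSMUSG00000031710.5) spans chr8:84016981-84025081, Prdm16 chr4:154400582-154721330, Ppargc1a chr5:51611592-51725068, Ebf2 chr14:67470741-67668367, Elovl3 chr19:46120336-46124133, Dio2 chr12:90691326-90705812, Pparg chr6:115337912-115467360 and Ppara chr15:85619184-85687020, while Cidea and Zfp516 lie on chromosome 18. All 10 are annotated as protein coding. Exons on the opposite strand overlap 6.12% of the exon bases of Ebf2, 1.17% of those of Prdm16, 1.56% of those of Dio2 and 0.506% of those of Elovl3. Whether counting used the strand is not given in the sources used here, so reads in these stretches cannot be assigned to one gene with certainty.

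Between 18369905 and 72991481 reads were assigned to genes per library, and 18369905 to 22475232 in iBAT. Hoxa5 read 44.1 to 51.5 TPM (the deposited level, scaled for gene length and for the total of its library) in the wt iBAT libraries and 9.84 to 16.2 TPM in the Hoxa5-/- libraries. In all 7 tissues and stages its genotype groups did not overlap, with log2 fold changes between −1.94 and −0.92. With single libraries left out, its adjusted p (edgeR quasi-likelihood test) was under 0.05 in 0 of 8 fits in trachea (0.0520 to 0.314). In somites at E10.5 it was under 0.05 in 1 of 7 (0.00509 to 0.304). It was under 0.05 in every such fit in the other tissues and stages. Counts in iBAT matched the tissue label. Adipoq, the adipocyte hormone adiponectin, averaged 1807 ± 41.7 TPM (SD, n = 5) in wt iBAT and Fabp4, a fatty acid carrier, 6258 ± 523 TPM. Over the iBAT libraries, summed lung epithelium markers reached at most 0.381 TPM and summed tracheal epithelium markers at most 1.30 TPM.

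Ucp1 and Cidea stood far above the other members in iBAT. In the 5 wt libraries Ucp1 read 3001, 6969, 4894, 5290 and 2320 TPM, replicates 1 to 5, and averaged 4495 ± 1862 TPM (SD, n = 5). Cidea read 3897, 4592, 5239, 5357 and 3740 TPM, with a mean of 4565 ± 743 TPM. By mean wt level they took ranks 21 (Cidea) and 22 (Ucp1) among the 14879 genes at 1 TPM or more. Ucp1 was lowest in wt replicates 5 and 1 and highest in replicate 2, a spread about the mean of 41.4%, against 16.3% for Cidea.

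The 2 nuclear receptors came next. Pparg read 282, 279, 303, 357 and 396 TPM in wt iBAT and ranked 396th, and Ppara read 116, 157, 198, 235 and 204 TPM and ranked 678th. Ebf2 read 59.1, 44.0, 50.2, 75.4 and 93.4 TPM, rank 1739. Its highest value fell in wt replicate 5, the library with the least Ucp1.

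The remaining members had modest levels. Ppargc1a read 30.3, 29.98, 23.5, 28.96 and 27.3 TPM in wt iBAT and Dio2 18.7, 28.2, 23.6, 24.99 and 15.3 TPM. Prdm16 read 7.72, 5.97, 7.75, 9.93 and 11.96 TPM, and Zfp516 8.52, 7.92, 8.24, 7.45 and 8.33 TPM. Prdm16 ranked 7999th and Zfp516 8253rd, so the cofactor and the activator of the brown fat program were read at 11.96 TPM or less in each wt library. Elovl3 was the lowest member and the most uneven, at 2.18, 9.59, 7.93, 10.8 and 1.51 TPM in replicates 1 to 5, from 21 to 155 counts. Wild-type replicates 1 and 5 lay far below the other 3.

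**Figure D1:**
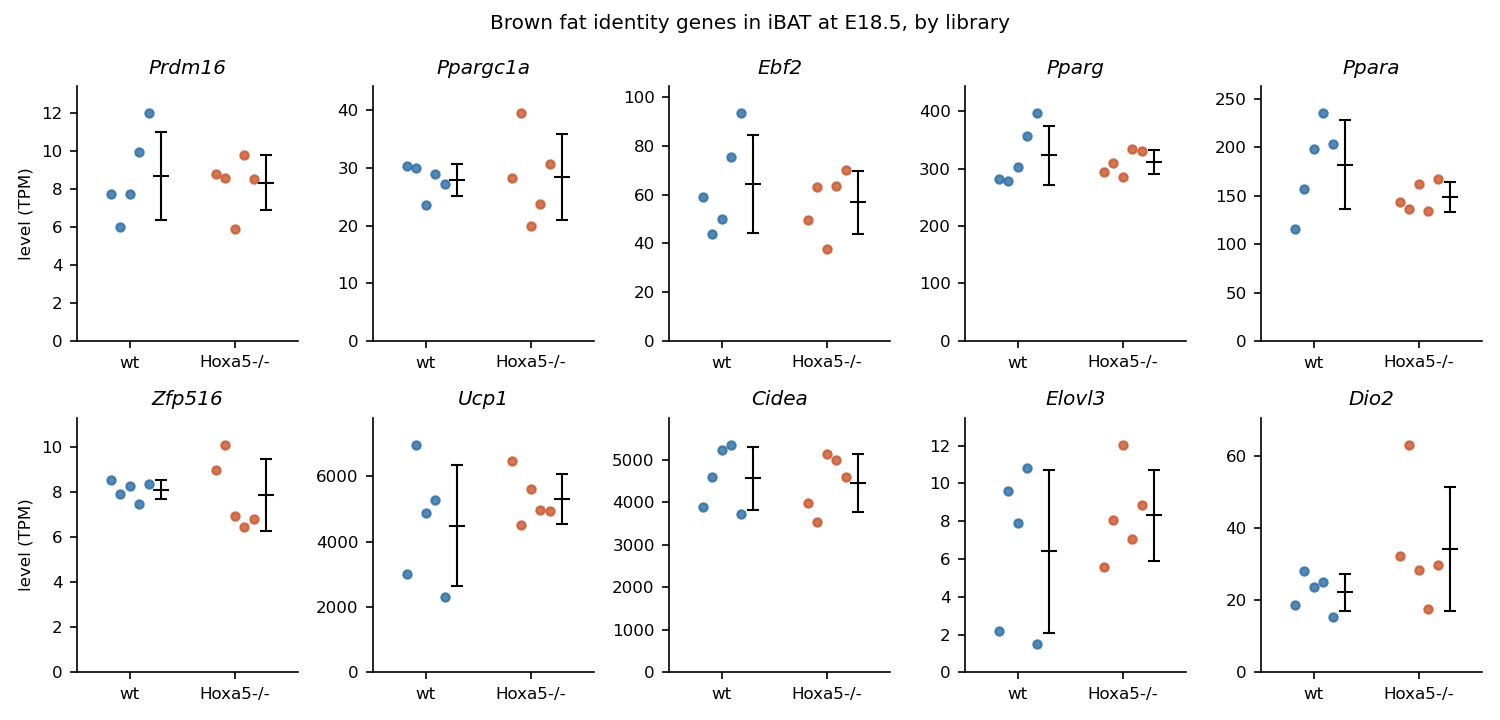
Level (TPM) of the 10 genes in each iBAT library at E18.5 for wt (blue, n = 5) and Hoxa5-/- (orange, n = 5), 1 panel and scale per gene, with black bars for the mean and SD of each group. Ucp1 and Cidea lie between 2320 and 6969 TPM, and wt and Hoxa5-/- points overlap for every gene.

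The main comparison asks whether loss of Hoxa5 altered these genes in developing brown fat. None of the 10 genes was called between genotypes in iBAT, where calls required a Benjamini-Hochberg adjusted p below 0.05 together with a change by 1.5 times or more (edgeR quasi-likelihood test, adjusted over all genes tested). Across all 15212 genes tested the called share was 0.00657%, which is 1 gene, Hoxa5. Without adjustment 376 genes had a p under 0.05, Dio2 alone among the members, and DESeq2 called 4 genes and no member. Groups overlapped for all 10 members, where 0.316% of all genes did not overlap.

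Among the regulators the 2 genotypes lay close together. In Hoxa5-/- iBAT Prdm16 read 8.76, 8.58, 5.88, 9.78 and 8.51 TPM, within the wt range in 4 of 5 libraries, with a log2 fold change of −0.00 (SE 0.15, 95% CI −0.32 to 0.31). Pparg read 295, 310, 286, 334 and 330 TPM, each inside the wt range, with a log2 fold change of −0.00 (SE 0.09, 95% CI −0.20 to 0.20). Zfp516 read 8.96, 10.1, 6.95, 6.46 and 6.79 TPM, values on both sides of the narrow wt range, and its log2 fold change was −0.01 (95% CI −0.21 to 0.19).

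Ebf2 read 49.8, 63.1, 37.9, 63.6 and 70.0 TPM in the Hoxa5-/- libraries, a log2 fold change of −0.12 (95% CI −0.50 to 0.26). Ppargc1a read 28.4, 39.5, 19.9, 23.8 and 30.7 TPM, a log2 fold change of 0.05 (95% CI −0.23 to 0.33). Ppara read 144, 137, 162, 134 and 167 TPM, a log2 fold change of −0.24 (95% CI −0.59 to 0.10). The Ppara values of the mutants all lay within the wt range of 116 to 235 TPM, and those of Ppargc1a fell on both sides of its wt range. All 6 regulators, like the 4 effectors, had an adjusted p of 1.0 by the edgeR quasi-likelihood test.

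The effectors varied more. Ucp1 read 6472, 4529, 5601, 4980 and 4934 TPM in Hoxa5-/- iBAT, a mean of 5303 ± 757 TPM (SD, n = 5), and its log2 fold change was 0.26 (SE 0.26, 95% CI −0.30 to 0.81). Its mutant values sat within the wt range, whose 2 lowest libraries had no counterpart among the mutants. Cidea read 3995, 3544, 5143, 5007 and 4600 TPM, a log2 fold change of 0.01 (95% CI −0.33 to 0.35). The interval for Cidea leaves out a change by 1.5 times in either direction, as do those of Prdm16, Ppargc1a, Ebf2, Pparg and Zfp516, while those of Ucp1, Elovl3, Dio2 and Ppara do not.

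Elovl3 read 5.60, 8.07, 12.04, 7.07 and 8.84 TPM in the mutants, a log2 fold change of 0.40 with a wide interval (95% CI −0.55 to 1.34). Dio2 read 32.3, 63.0, 28.3, 17.5 and 29.8 TPM against 15.3 to 28.2 TPM in wt, the largest difference among the 10, with a log2 fold change of 0.63 (SE 0.26, 95% CI 0.07 to 1.19). Its unadjusted p was 0.0293 and its adjusted p 1.0 (edgeR quasi-likelihood test), the groups overlapped, and without Hoxa5-/- replicate 2, the library at 63.0 TPM, the log2 fold change was 0.34. That library also had the highest summed level of red cell markers, 18990 TPM against 5368 to 15980 TPM in the other 9, and the lowest sum of the 12 adipocyte markers, 14040 TPM against 14933 to 16734 TPM. Their part in the Dio2 value was not tested. In these bulk samples fewer cells of a type and less RNA per cell cannot be told apart.

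Related genes were not called in iBAT either. Of 20 other regulators of brown fat all 20 were tested and none was called (edgeR quasi-likelihood test), with a median log2 fold change of −0.04 against −0.00 over all genes, beside 0.00 for the members. Of 20 other thermogenic genes 18 were tested and none was called, with a median of −0.05, and of the 12 adipocyte markers none was called, with a median of −0.02. Of 14 paralogues of the members 9 were tested and none was called, with a median of 0.10. The 9 skeletal muscle markers tested had a median of −0.70 with none called, and their summed level was 1658, 654, 473, 393 and 610 TPM in wt replicates 1 to 5 and 192 to 589 TPM in the mutants. Wild-type replicate 1, highest in muscle markers, was 1 of the 2 wt libraries low in Ucp1 and Elovl3, and replicate 5, the other, had no excess of them.

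The members differed in how far they varied among embryos. Within genotype, Elovl3 had a standard deviation of 0.98 on the log2 CPM scale (counts scaled to library size), larger than that of 96.9% of genes, Ucp1 0.51 (88.0%) and Dio2 0.50 (87.6%). Pparg, at 0.15, was steadier than most, with only 41.6% of genes below it, as was Zfp516, with 42.3%. Over the 10 iBAT libraries Ucp1 followed Elovl3 most closely, with Pearson's r = 0.89 (permutation p = 0.00477, adjusted over 9 relations 0.0429) and Spearman's rho = 0.61 (permutation p = 0.0662, adjusted 0.314). Without wt replicates 1 and 5, the libraries farthest from the median of Ucp1, r fell to 0.12, so the relation rested on those libraries. The relation of Ucp1 with Cidea had r = 0.66 (permutation p = 0.0308, adjusted 0.138) and r = 0.26 without those libraries. With Ebf2 the sign was negative, r = −0.57 (permutation p = 0.0860, adjusted 0.258) and rho = −0.59, and r without those libraries was −0.56. The other 6 relations had adjusted permutation p-values of at least 0.258.

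**Figure D2:**
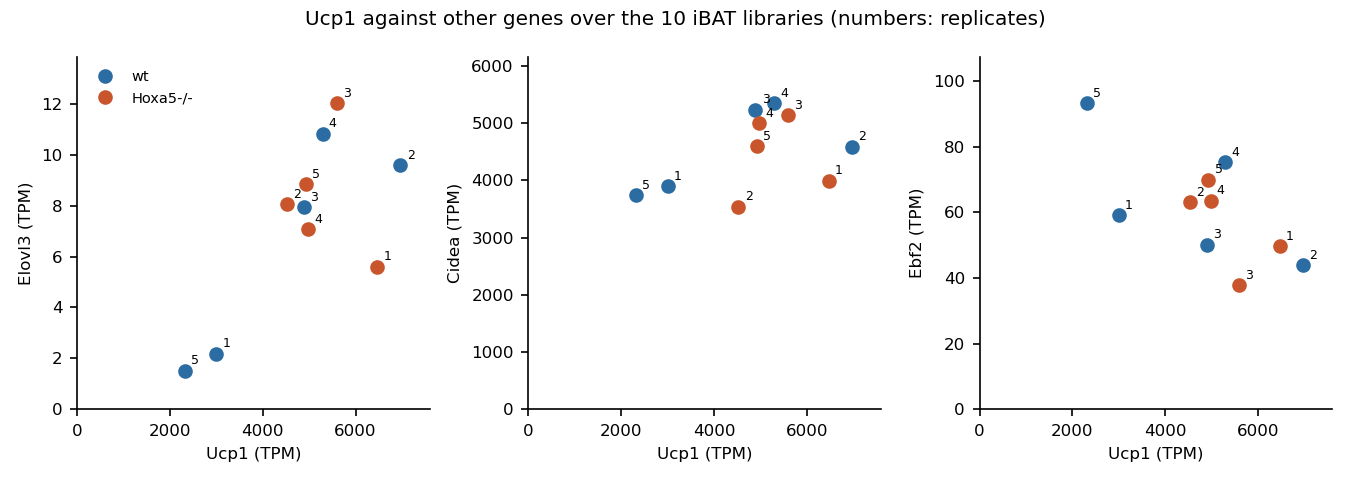
Levels (TPM) of Elovl3, Cidea and Ebf2 against that of Ucp1 in the 10 iBAT libraries, wt in blue and Hoxa5-/- in orange, with replicate numbers. The 2 wt libraries at the left, replicates 5 and 1, carry the relation with Elovl3 (r = 0.89 with them and 0.12 without them, on log2 CPM).

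To place these levels in development, wt iBAT was compared with wt somites at E12.5, sequenced at the same centre. Of the 10 genes 9 were higher in iBAT and 1, Zfp516, was lower, where 31% of all genes tested were called higher and 35.3% lower (edgeR quasi-likelihood test). Ucp1 passed the test limit, a mean of 1 TPM, through iBAT alone, so hardly any call but higher was open to it. The median log2 fold change of the members was 4.29 against −0.16 over all genes. Ucp1 had 3, 0, 0 and 1 counts in the 4 wt somite libraries, 0.243, 0, 0 and 0.0835 TPM, so that the mean iBAT level was 55120-fold that of somites, with a counting interval of 21530 to 202300-fold from the 4 counts. Cidea read 1.19, 1.91, 1.65 and 1.47 TPM in somites and its log2 fold change was 12.7 (SE 0.26).

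Both nuclear receptors were scarce in somites and abundant in iBAT. Pparg read 3.14, 3.60, 2.83 and 3.10 TPM in wt somites at E12.5, a log2 fold change of 7.88 (SE 0.14), and Ppara 1.38, 1.80, 2.73 and 2.03 TPM, a log2 fold change of 7.73 (SE 0.26). Ppargc1a read 2.37, 2.44, 2.47 and 2.82 TPM and rose by 4.68 (SE 0.11) on the log2 scale in iBAT. Dio2 read 3.71, 2.84, 3.79 and 3.58 TPM and rose by 3.90 (SE 0.21). For each of these genes every iBAT library lay above every somite library.

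Ebf2, Prdm16 and Elovl3 were already expressed in somites at levels near those of iBAT. Ebf2 read 53.9, 57.3, 61.4 and 61.1 TPM in wt somites against 44.0 to 93.4 TPM in iBAT, a log2 fold change in normalised counts of 1.33 (SE 0.15). Prdm16 read 10.7, 9.90, 13.5 and 14.6 TPM against 5.97 to 11.96 TPM, and its log2 fold change was 0.71 (SE 0.16) in counts normalised by TMM, a scaling to the typical gene, but −0.46 on the log2(TPM + 1) scale (limma, adjusted p = 0.0309). Elovl3 read 4.42, 4.44, 2.72 and 3.53 TPM against 1.51 to 10.8 TPM, a log2 fold change of 2.01 (SE 0.49). On log2(TPM + 1) neither Ebf2 (0.09) nor Elovl3 (0.39) was called by limma, so 6 members were called higher and 1 lower on that scale, and 8 and 1 when counts were scaled by library totals without TMM. The median of all genes moved with the scaling, from −0.16 with TMM to −0.80 with library totals and −1.04 on log2(TPM + 1). With it the calls over all genes went from 6002 higher and 6839 lower to 4102 and 10160 and to 2792 and 12466.

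Zfp516 was the exception in every scaling. It read 49.5, 49.9, 60.8 and 63.5 TPM in wt somites at E12.5 and 7.45 to 8.52 TPM in wt iBAT, a log2 fold change of −1.58 (SE 0.09). By mean TPM it was 6.91-fold lower in iBAT, and its log2 fold changes over all alternatives ranged from −2.64 to −1.47.

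Among other regulators 13 of 20 were called higher in iBAT and 5 lower, with a median log2 fold change of 1.40. Higher were Cebpa (6.72), a master factor of adipocyte differentiation, Ppargc1b (5.04), the relative of Ppargc1a, Cebpb (4.67) and Irf4 (4.54), while Ebf3 (−1.49), Zfp423 (−1.45), a preadipocyte factor, Gata6 (−0.84) and Ehmt1 (−0.64), a histone methyltransferase partner of Prdm16, were lower. Of 18 other thermogenic genes tested 16 were called higher, with a median of 4.84, led by Cox7a1 (10.9) and Cox8b (9.79), subunits of cytochrome c oxidase, Plin5 (10.7), a lipid droplet coat protein, and Otop1 (8.39), a proton channel. Ndrg4 (−2.84) and Fabp3 (−0.65) were lower. All 12 adipocyte markers were called higher, with a median of 10.04. These differences combine tissue, stage and cell makeup, which cannot be told apart.

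Relatives of the members by sequence were split in direction. Of 12 paralogues tested 3 were called higher in wt iBAT and 5 lower, with a median log2 fold change of −0.27 (edgeR quasi-likelihood test). Ucp3, the uncoupling protein of muscle, averaged 0.198 ± 0.170 TPM (SD, n = 4) in wt somites at E12.5 and 6.08 ± 1.85 TPM (SD, n = 5) in wt iBAT. Ucp2, its widely expressed relative, read 56.0 to 62.6 TPM in somites and 44.2 to 63.1 TPM in iBAT, called higher by TMM counts (1.10) although its TPM ranges overlapped. Elovl5 was likewise called higher by TMM counts (0.68) but lay lower in TPM, at 57.2 to 73.2 TPM in iBAT against 94.8 to 98.8 TPM. Elovl4 and Elovl2, elongases of very long chain and polyunsaturated fatty acids, averaged 18.2 and 7.12 TPM in somites and 0.0666 and 0.547 TPM in iBAT. Ebf4, a relative of Ebf2, averaged 18.7 TPM in somites and 0.272 TPM in iBAT, and Dio3, the deiodinase that inactivates thyroid hormone, 17.3 and 1.13 TPM.

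Markers of progenitors moved in both directions between the same tissues. Of 10 adipose progenitor and dermomyotome markers 6 were called lower in wt iBAT than in wt somites at E12.5 and 2 higher (edgeR quasi-likelihood test), with sums of 377 to 545 TPM in iBAT and 1286 to 1538 TPM in somites. Pax7, a factor of muscle precursors, averaged 17.3 TPM in somites and 0.102 TPM in iBAT, Myf5, expressed in the precursors of muscle and brown fat, 25.9 and 0.510 TPM, and Pdgfra, a receptor of mesenchymal progenitors, 265.7 and 13.4 TPM. Pax3 averaged 1.58 TPM in somites and was at 0 in each wt iBAT library. Ly6a, a surface marker of adipose progenitors and endothelium, averaged 0.312 and 43.5 TPM.

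**Figure D3:**
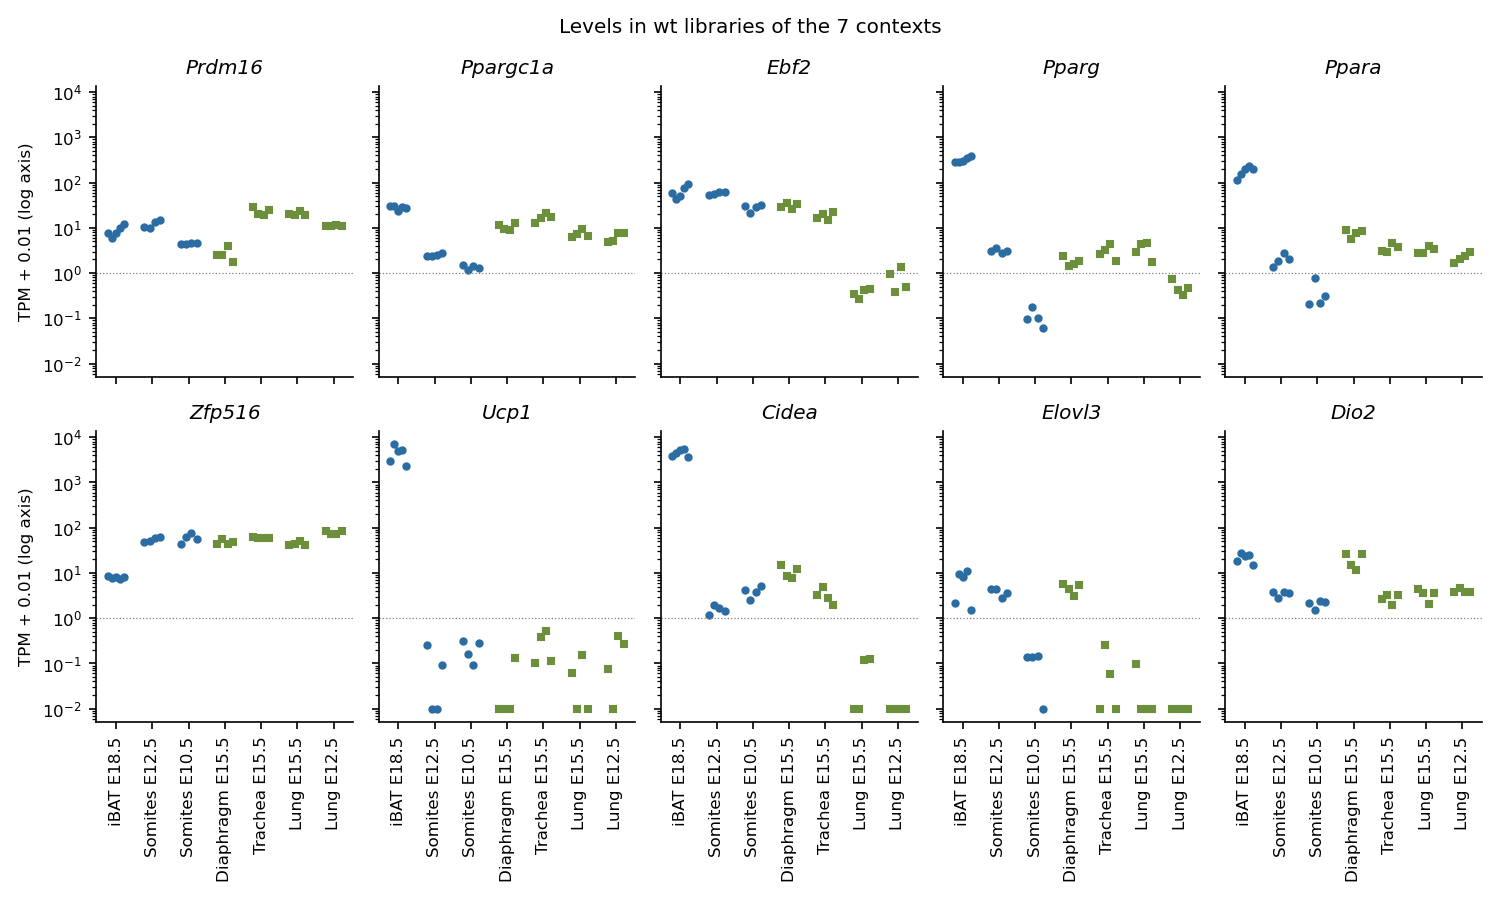
Level of each of the 10 genes in single wt libraries of the 7 tissues and stages (n = 5 for iBAT and 4 elsewhere), as TPM + 0.01 on a log axis, with a dotted line at 1, circles for one sequencing centre and squares for the other. Ucp1 lies at 2320 TPM or more in iBAT and at 0.522 TPM or less elsewhere, and Zfp516 is lowest in iBAT.

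Between E10.5 and E12.5 most of the members rose in wt somites. Of 9 genes tested 7 were called higher at E12.5 and 1 lower, where 24.1% of all genes were called higher and 18.4% lower (edgeR quasi-likelihood test), and the median of the members was 0.96 against −0.04 over all genes. Elovl3, Pparg and Ppara averaged 0.0981, 0.0994 and 0.368 TPM at E10.5 and passed the test limit of 1 TPM through E12.5 alone. Hardly any call but higher was therefore open to these genes. The steepest were Elovl3 and Pparg. Elovl3 had 6 counts in the 4 libraries together at E10.5, 0.127, 0.127, 0.138 and 0 TPM, and 2.72 to 4.44 TPM at E12.5, a log2 fold change of 5.05 (SE 0.41). Pparg had 9 counts at E10.5, 0.0852, 0.170, 0.0922 and 0.050 TPM, and 2.83 to 3.60 TPM at E12.5, a log2 fold change of 4.82 (SE 0.31). On the log2(TPM + 1) scale these changes were 2.11 for Elovl3 and 1.92 for Pparg, and both were still called.

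Prdm16 read 4.40, 4.45, 4.54 and 4.70 TPM at E10.5 and 9.90 to 14.6 TPM at E12.5, a log2 fold change of 1.36 (SE 0.13). Ebf2 read 31.2, 21.8, 29.4 and 32.3 TPM at E10.5 and rose by 0.96 (SE 0.11) on the log2 scale. Ppara, at 0.197, 0.753, 0.213 and 0.308 TPM at E10.5, rose by 2.33 (SE 0.39). The ranges of the 2 stages did not overlap for any of these 5 genes.

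Ppargc1a rose by 0.85 (SE 0.15) and Dio2 by 0.66 (SE 0.16), the latter 0.54 and below the fold required without wt replicate 2 at E10.5, and Zfp516, at 44.4 to 78.2 TPM, had a log2 fold change of −0.15 that was not called. Cidea went the other way, from 4.29, 2.48, 3.78 and 5.03 TPM at E10.5 to 1.19 to 1.91 TPM at E12.5, a log2 fold change of −1.38 (SE 0.29, adjusted p = 0.00101 by the edgeR quasi-likelihood test). Between the Hoxa5-/- somites of the same stages its log2 fold change was −1.03 (adjusted p = 0.0647), not called, and the difference between genotypes was not called either (0.35, 95% CI −0.77 to 1.47). Ucp1 stayed below the test limit, with 10 counts over the 4 wt libraries at E10.5 and 4 at E12.5.

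Other regulators rose over the same interval. Of 19 tested 13 were called higher and 1 lower, with Nfia (3.46), Cebpa (3.39), Rxrg (2.59) and Gata6 (2.37) leading and Esrrg (−0.81) lower. Of 13 other thermogenic genes 6 were called higher, among them Mpzl2 (2.41), Cox8b (2.36) and Fabp3 (2.17), the last 2 also abundant in striated muscle. All 9 skeletal muscle markers tested were called higher, with a median of 3.21, and 1 of 6 adipocyte markers. Between genotypes, at E12.5 none of 9 members was called (0.00529% of all genes, 613 genes at an unadjusted p under 0.05, DESeq2 2 genes), and at E10.5 none of 6 (0.0215%, 2360 genes, DESeq2 18 genes), in both cases without a member by DESeq2. In normalised counts all members tested had overlapping groups at both stages, where 2.66% of all genes at E12.5 and 8.16% at E10.5 did not overlap. In TPM the groups of Prdm16 at E10.5 did not overlap, at 4.40, 4.45, 4.54 and 4.70 TPM in wt and 4.87, 5.12 and 4.95 TPM in Hoxa5-/- (log2 fold change 0.09, 95% CI −0.15 to 0.32). Summed endothelial, Schwann cell, keratinocyte, and adipose progenitor and dermomyotome markers were also higher in each Hoxa5-/- library than in any wt library at E10.5, such as 245 to 266 TPM against 184 to 237 TPM for the endothelial ones, and their part in the Prdm16 levels was not tested. Zfp516 had the lowest adjusted p of the members in somites, 0.401 at E10.5 (log2 fold change 0.26, edgeR quasi-likelihood test), and without wt replicate 3 it was 0.0437 with a log2 fold change of 0.39, below the fold required. The lowest unadjusted p was that of Elovl3 at E12.5, at 2.47, 3.01, 3.07 and 2.73 TPM in Hoxa5-/- against 4.42, 4.44, 2.72 and 3.53 TPM in wt, a log2 fold change of −0.42 (unadjusted p = 0.0493, adjusted p = 0.999 by the edgeR quasi-likelihood test) with overlapping groups.

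The diaphragm, trachea and lung were sequenced as single-end reads at another centre, so their levels are set beside those above without a test, and tissue and centre cannot be told apart. Ucp1 had at most 9 counts in any of these libraries, at most 0.522 TPM. By mean wt TPM the diaphragm was the next tissue after iBAT for Cidea (10.9 ± 3.19 TPM), Elovl3 (4.67 ± 1.19 TPM), Dio2 (19.8 ± 7.84 TPM) and Ppara (7.62 ± 1.47 TPM), each SD over n = 4. For Elovl3 and Dio2 its library values overlapped those of iBAT, and for Cidea and Ppara they did not. Prdm16 was highest in trachea, at 28.4, 19.8, 18.9 and 24.6 TPM, and in lung at E15.5, at 19.8, 19.4, 23.8 and 19.1 TPM, which overlapped. It was above its iBAT range in every library of both. Zfp516 was highest in lung at E12.5, at 83.5, 72.9, 73.1 and 82.5 TPM.

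Within these tissues 6 of 9 members were called higher in wt diaphragm than in wt lung at E15.5 and 1 lower, where 20.9% of all genes were called higher and 15.6% lower (edgeR quasi-likelihood test). Ebf2, Cidea and Elovl3 averaged 0.357, 0.0558 and 0.0213 TPM in wt lung and passed the test limit of 1 TPM through the diaphragm alone. Hardly any call but higher was therefore open to them. Ebf2 read 28.4, 34.6, 25.6 and 34.4 TPM in diaphragm and 0.328, 0.258, 0.414 and 0.430 TPM in lung, a log2 fold change of 6.75 (SE 0.18). Cidea and Elovl3 had 2 counts each over the 4 lung libraries and no fold change is given. Dio2, at 26.5, 14.7, 11.501 and 26.5 TPM against 4.49, 3.57, 2.05 and 3.65 TPM, had a log2 fold change of 2.85 (SE 0.35), Ppara 1.55 and Ppargc1a 0.86, and Prdm16, at 1.72 to 4.0 TPM in diaphragm, one of −2.64 (SE 0.21). By library totals without TMM and on log2(TPM + 1) the calls over all genes turned from 3959 higher and 2956 lower to 3190 and 4690 and to 2812 and 4856, with medians of −0.25 and −0.28 in place of −0.01. On both scalings Pparg (−0.62 with TMM) was also called lower, at −0.86 and −0.61, and on log2(TPM + 1) Ppargc1a (0.49) lost its call. In Hoxa5-/- libraries the same comparison gave 0.22 for Ppargc1a, which was not called. Leaving out wt lung replicate 4 also brought the call of Pparg as lower (−0.83).

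Adipocyte markers in the wt diaphragm summed to 243 to 295 TPM, against 15546 to 16096 TPM in wt iBAT and 92.3 to 151 TPM in wt lung at E15.5. Among them Adipoq averaged 0.0459 TPM and Plin1, the coat protein of lipid droplets in adipocytes, 0.0333 TPM in the diaphragm, Fabp4, which endothelial cells also make, averaged 47.0 TPM, and 6 of the 12 markers passed the test limit. These 3 genes were picked after their values were seen. Summed skeletal muscle markers ran from 23944 to 44884 TPM in wt and from 19498 to 34013 TPM in Hoxa5-/-. Dio2 had the same order of libraries as these markers in Hoxa5-/-. In wt, replicates 1 and 4 were highest in both, but Dio2, at 26.48 and 26.51 TPM, was slightly higher in replicate 4 and the markers in replicate 1. Replicate 3 was lowest in both genotypes. The part of muscle RNA in the Dio2 level was not tested.

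In wt trachea, 3 of 8 members were called higher than in lung at E15.5, where 20.1% of all genes were called higher and 10.1% lower (edgeR quasi-likelihood test). They were Ebf2, at 16.4, 19.7, 15.2 and 22.7 TPM (log2 fold change 5.67, SE 0.21), Ppargc1a, at 12.9, 16.6, 21.8 and 17.8 TPM (1.22, SE 0.18), and Cidea, at 3.29, 4.91, 2.81 and 1.96 TPM, against 2 counts in lung. Of these, Ebf2 and Cidea passed the test limit of 1 TPM through trachea alone, so hardly any call but higher was open to them. Between Hoxa5-/- trachea and lung the log2 fold change of Ppargc1a was 0.58 (adjusted p = 0.104 by the edgeR quasi-likelihood test), not called, and its difference between genotypes was not tested.

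In wt lung, Pparg and Prdm16 rose from E12.5 to E15.5 and Zfp516 fell, 2 of 6 members called higher and 1 lower beside 15.4% and 9.15% of all genes (edgeR quasi-likelihood test). Pparg read 0.745, 0.407, 0.312 and 0.468 TPM at E12.5 and 2.88, 4.36, 4.69 and 1.75 TPM at E15.5, a log2 fold change of 2.77 (SE 0.37). It passed the test limit of 1 TPM through E15.5 alone, so hardly any call but higher was open to it. Summed markers of lung epithelium, a tissue in which Pparg also acts, read 510, 530, 615 and 573 TPM at E12.5 and 5109, 6728, 9826 and 3763 TPM at E15.5, with the 4 libraries of E15.5 in the same order as for Pparg. Whether they account for the difference was not tested. Prdm16 rose from a range of 10.8 to 11.7 TPM to one of 19.1 to 23.8 TPM (log2 fold change 0.84, SE 0.08), and Zfp516 fell to 42.1 to 51.9 TPM (−0.83, SE 0.08). Between the Hoxa5-/- lungs of the same stages the log2 fold change of Prdm16 was 0.20 (adjusted p = 0.248 by the edgeR quasi-likelihood test) and that of Zfp516 −0.44, neither called, and the differences between genotypes were not called either. Without wt replicate 4 at E12.5 Ppara was also called higher (0.61, against 0.48 with it).

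No member was called between genotypes in these tissues either. The lowest adjusted p was that of Prdm16 in lung at E12.5, and the next were those of Ppargc1a and Ebf2 in diaphragm. Prdm16 read 11.1, 10.8, 11.7 and 11.1 TPM in wt and 14.1, 16.7, 15.8 and 16.2 TPM in Hoxa5-/- lung, without overlap. Its log2 fold change was 0.50 (SE 0.06, 95% CI 0.37 to 0.63, adjusted p = 0.00995 by the edgeR quasi-likelihood test), a fold of 1.41 that fell short of the required 1.5. The adjusted p ranged from 0.0151 to 0.0700 when single libraries were left out, was 0.366 in a fit of all libraries of the table and 5.9e-12 by DESeq2. Hoxa5-/- replicate 1, the lowest mutant library, had red cell markers at 16510 TPM against 1849 to 3163 TPM in the other 7, and without it the log2 fold change was 0.50.

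Ebf2 was low in the same lungs, at 0.952, 0.376, 1.39 and 0.479 TPM in wt and 1.33, 2.04, 2.09 and 3.14 TPM in Hoxa5-/-, from 24 to 277 counts. Its log2 fold change was 1.43 (SE 0.37, 95% CI 0.60 to 2.25), with an adjusted p of 0.308 by the edgeR quasi-likelihood test and 0.0176 by DESeq2, which called it. With single libraries left out it ran from 1.19 to 1.81, with adjusted p-values of 0.206 to 0.699 (edgeR quasi-likelihood test). The wt mean of Ebf2 was 0.799 TPM, so it passed the test limit of 1 TPM through the mutants alone. The groups did not overlap in normalised counts. In TPM they did, with wt replicate 3 at 1.39 TPM and Hoxa5-/- replicate 1 at 1.33 TPM. Summed cartilage markers were also higher in the mutant lungs, 196 to 224 TPM against 155 to 178 TPM, and 1 of the 3 tested was called higher. Hoxa5-/- replicate 4, highest in Ebf2, had skeletal muscle markers at 69.9 TPM, against 16.9 to 28.5 TPM in the other libraries of both genotypes. The part of these markers in the Ebf2 values was not tested. In this tissue 2 of 6 members, Prdm16 and Ebf2, had groups without overlap in normalised counts, beside 5.45% of all genes. Of all genes 0.0798% were called (14 genes, 81 by DESeq2, and 1406 at an unadjusted p under 0.05). Dio2 (0.39, unadjusted p = 0.0278) and Zfp516 (−0.24, unadjusted p = 0.0142) had adjusted p-values of 0.579 and 0.501 (edgeR quasi-likelihood test) and overlapping groups.

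**Figure D4:**
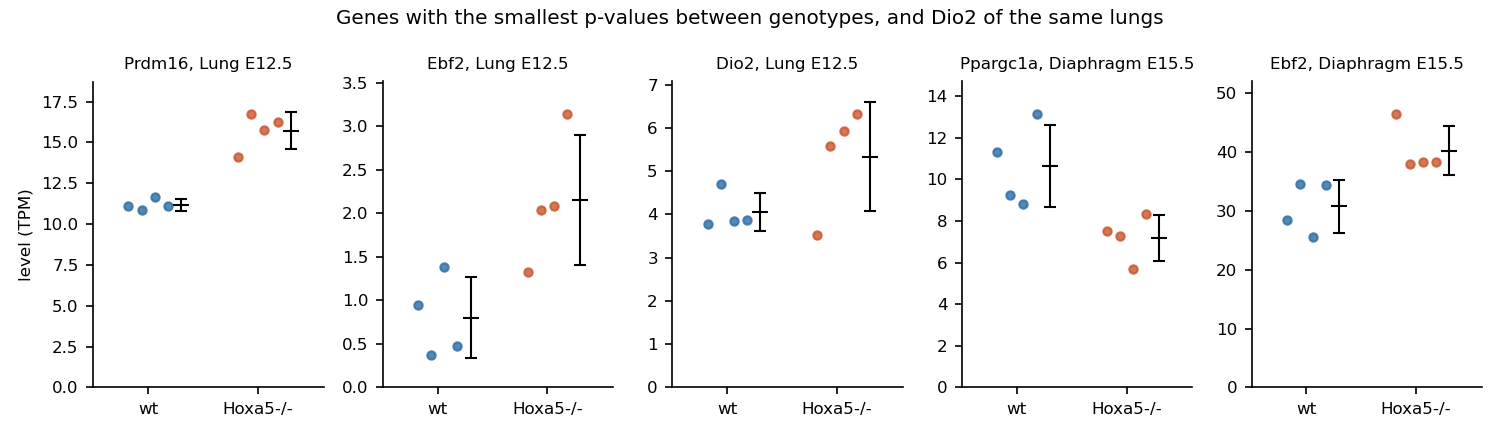
TPM by library in wt and Hoxa5-/- (n = 4 each) for the 4 differences of members with the smallest unadjusted p, and Dio2 beside them, namely Prdm16, Ebf2 and Dio2 in lung at E12.5 and Ppargc1a and Ebf2 in diaphragm at E15.5, with bars for the mean and SD. Prdm16 runs from 10.8 to 11.7 TPM in wt and from 14.1 to 16.7 TPM in Hoxa5-/-.

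At E15.5 the lung groups overlapped in Prdm16, with 19.7, 15.497, 23.7 and 11.3 TPM in Hoxa5-/- against 19.1 to 23.8 TPM in wt (log2 fold change −0.15, 95% CI −0.45 to 0.15). The genotype effect on Prdm16 was lower at E15.5 than at E12.5 by the interaction estimate of −0.64 (SE 0.15, 95% CI −0.97 to −0.32), with an unadjusted p of 0.000646 and an adjusted p of 0.539 (edgeR quasi-likelihood test), not called, where 0.0267% of all genes were. Without Hoxa5-/- replicate 3 at E15.5 it was −0.78 with an adjusted p of 0.0284 and was called. Hoxa5-/- replicate 4 at E15.5, lowest in Prdm16 and, at 31.5 TPM, in Zfp516, also had the lowest lung epithelium markers, 1910 TPM against 2655 to 9906 TPM in the other 7. This library was lowest in the sum of every list but skeletal muscle markers, in which it was highest. The other regulators summed to 412 TPM in it, against 671 to 805 TPM in the other 7. The paper lists lower shares of mapped and assigned reads for it than for the other lungs. Their part in these values was not tested. None of the 6 members tested was called or without overlap at this stage (0.124% and 4.38% of all genes, 1123 genes at an unadjusted p under 0.05, 83 genes and no member by DESeq2). Dio2, at 6.14, 6.48, 2.84 and 4.74 TPM against 4.49, 3.57, 2.05 and 3.65 TPM in wt, had the largest difference, 0.66 (95% CI −0.02 to 1.35), with an adjusted p of 0.806 (edgeR quasi-likelihood test). It was higher in the mutant of the same number in 4 of 4 pairs. With the replicate number as a block the log2 fold change was 0.65 and the adjusted p 0.0408 (edgeR quasi-likelihood test). No label says that these numbers match embryos, and 2 of 4 mutant libraries correlated best with the wt library of their own number. Summed endothelial markers were lower in each Hoxa5-/- lung at E15.5, 497 to 836 TPM against 897 to 1094 TPM in wt, and their part in the Dio2 value was not tested.

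In the diaphragm, Ppargc1a was lower and Ebf2 higher in every Hoxa5-/- library than in any wt library, 2 of 9 members without overlap beside 8.03% of all genes, and neither was called, where 0.594% of all genes were. Ppargc1a read 11.3, 9.25, 8.83 and 13.1 TPM in wt and 7.53, 7.26, 5.69 and 8.32 TPM in Hoxa5-/-, a log2 fold change of −0.58 (SE 0.17, 95% CI −0.97 to −0.18, adjusted p = 0.206 by the edgeR quasi-likelihood test). Its adjusted p was 0.0462 by DESeq2 and 0.0176 when replicates of the same number were blocked, and the fold stayed below that required. Ebf2 read 28.4, 34.6, 25.6 and 34.4 TPM in wt and 46.4, 37.9, 38.4 and 38.3 TPM in Hoxa5-/-, a log2 fold change of 0.38 (SE 0.11, 95% CI 0.12 to 0.64, adjusted p = 0.206). The third replicate stood apart in each genotype, wt with lung epithelium markers at 515 TPM against 3.66 to 41.6 TPM elsewhere and Hoxa5-/- with cartilage markers at 378 TPM against 17.03 to 35.2 TPM. Summed endothelial markers were lower in each Hoxa5-/- library, 199 to 275 TPM against 279 to 345 TPM in wt, and 2 of the 6 Schwann cell markers were called lower. Summed skeletal muscle markers ran from 19498 to 34013 TPM in Hoxa5-/- and from 23944 to 44884 TPM in wt, with overlap. In each genotype replicates 1 and 4 were highest both in these markers and in Ppargc1a, and replicate 3 was lowest. The part of all these markers in the values of Ppargc1a and Ebf2 was not tested. Without replicate 3 of both genotypes, the log2 fold changes were −0.57 for Ppargc1a and 0.31 for Ebf2, 93 genes were called in place of 107, and still no member. DESeq2 called 406 genes and no member, and 2348 genes had an unadjusted p under 0.05 by edgeR. Cidea read 14.7, 8.73, 7.78 and 12.3 TPM in wt and 12.6, 7.77, 9.13 and 14.7 TPM in Hoxa5-/- (0.01, 95% CI −0.65 to 0.67). Of 15 other thermogenic genes tested 1 was called, Kcnk3, a potassium channel, at 7.13 ± 1.01 TPM in wt and 1.69 ± 0.66 TPM in Hoxa5-/- (SD, n = 4), which fell by 2.07 on the log2 scale (adjusted p = 0.0199 by the edgeR quasi-likelihood test). None of 19 other regulators was called.

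In the trachea none of 8 members was called or without overlap (0.0156% and 3.9% of all genes, 1288 genes at an unadjusted p under 0.05, and 52 genes but no member by DESeq2). Dio2 read 2.62, 3.22, 1.91 and 3.22 TPM in wt and 3.67, 3.06, 8.27 and 2.66 TPM in Hoxa5-/-, a log2 fold change of 0.68 (adjusted p = 0.774 by the edgeR quasi-likelihood test) that was 0.18 without Hoxa5-/- replicate 3. This library was also the highest mutant in Cidea (5.96 TPM), Elovl3 (0.856 TPM) and Pparg (3.03 TPM). Its skeletal muscle markers summed to 6511 TPM against 1003 to 4253 TPM in the other 7 tracheal libraries and its cartilage markers to 4051 TPM against 944 to 1667 TPM, and their part in these values was not tested.

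**Figure D5:**
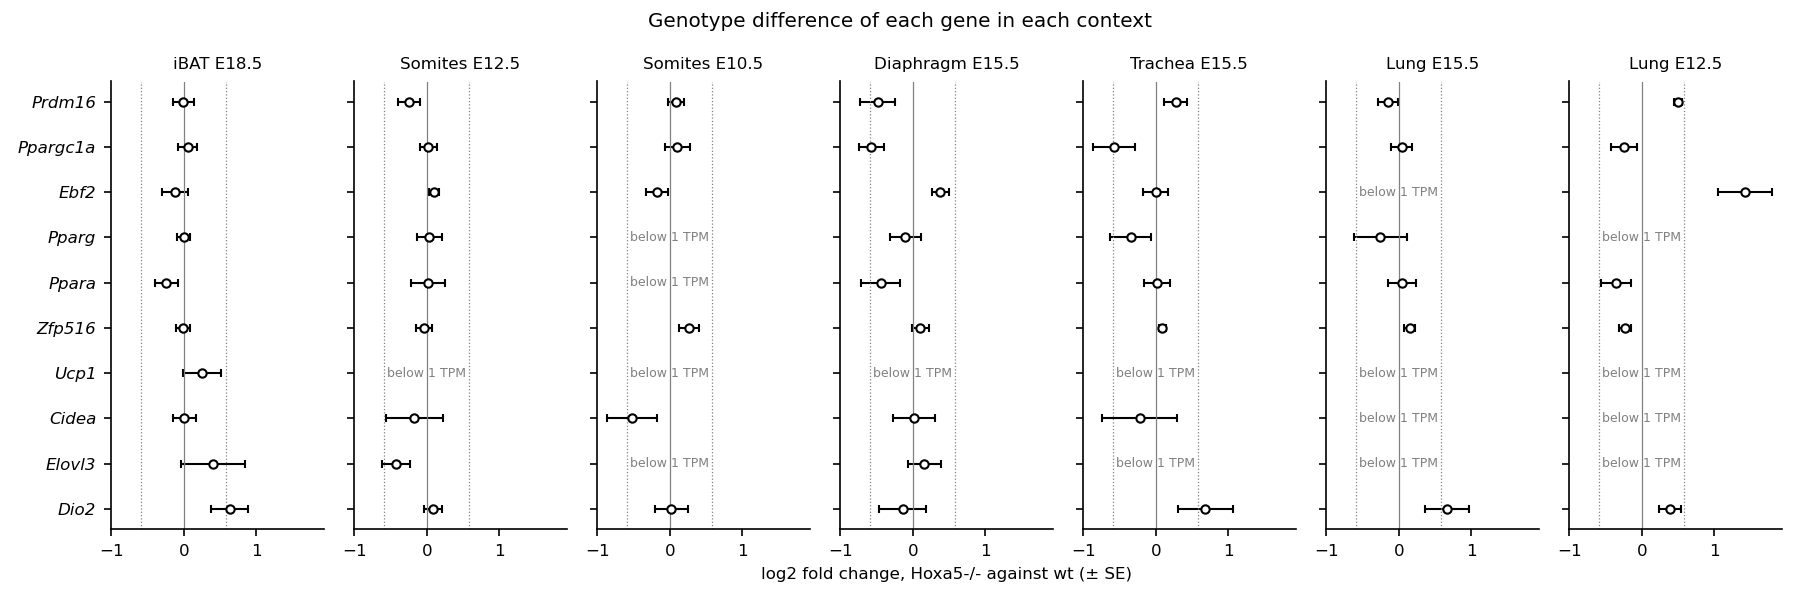
Log2 fold change of Hoxa5-/- over wt (points) with its SE (bars) for each of the 10 genes in each of the 7 tissues and stages where it passed the test limit of 1 TPM, with dotted lines at a change by 1.5 times. No gene was called, and Prdm16 in lung at E12.5, at 0.50 with an SE of 0.06, has the smallest p.

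The effect of genotype in iBAT was also set against that in somites at E12.5. None of the 10 members was called for a difference in effect between these tissues, nor was any of the 20001 genes tested by the edgeR quasi-likelihood test (0%, 515 genes at an unadjusted p under 0.05, 2 genes by DESeq2). Ucp1 passed the test limit through iBAT alone. With 0 to 3 counts per wt and 0 to 5 per Hoxa5-/- somite library, its genotype effect in somites could not be measured. For Dio2 the difference was 0.55 (95% CI −0.20 to 1.31), for Prdm16 0.26 (95% CI −0.24 to 0.75), and for Pparg −0.02 (95% CI −0.40 to 0.36). Between somites at E12.5 and E10.5 no member was called either (0.0147% of all genes), with Ebf2 at 0.28 (95% CI −0.08 to 0.63) and Prdm16 at −0.33 (95% CI −0.76 to 0.10). Elovl3, Pparg and Ppara passed the test limit there through E12.5 alone.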

How the data were processed

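Polyadenylated RNA of 57 dissected tissue libraries was sequenced, per the labels, as single-end 100-base reads for trachea, lung and diaphragm (32 libraries) and as paired-end 150-base reads at another centre for somites and iBAT (25 libraries). Reads were trimmed by the authors (Trim Galore 0.6.5), aligned to GRCm39 with STAR 2.7.9a and counted with featureCounts 2.0.3 on Ensembl release 109 with Hox genes curated. The authors deposited raw counts per gene and TPM values, one table of each per centre, with no replicates pooled. The methods describe the libraries as biological replicates, and p-values measure the spread between these libraries.

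Genotype was tested within each tissue and stage, and wt tissues or stages within a table, by edgeR 4.0.16 (R 4.3.3) quasi-likelihood tests on the deposited counts with TMM normalization, for genes whose mean in either group reached 1 TPM. Calls needed a Benjamini-Hochberg adjusted p under 0.05 over all genes tested and a fold change of at least 1.5, and interactions had no fold minimum. DESeq2 1.42.0 served as an alternative, and limma 3.58.1 was run on log2(TPM + 1). Confidence intervals are at 95%. Correlations used log2 CPM with a prior count of 0.5 and 100000 two-sided permutations. The self-test on simulated counts was run for the main edgeR fit only, on a single comparison of each kind (genotype, wt tissues or stages, and interaction). The DESeq2 and limma fits were not tested in this way. Intervals and floors from counts cover counting error only. The 10 genes and all gene lists were chosen with earlier results of these data known. Genes outside the 10 were named by size of change among those called, up to 4 per list and direction, and the 5 genes nearest to Ucp1 by r. Adipoq, Plin1 and Fabp4 were named after their values were seen, as a check for adipocytes. Gene names that lacked their hyphen (2573) were respelled. Pairing by replicate number was checked and is not used. The names of the iBAT libraries also carry number prefixes, 319, 321, 324 and 327, each shared by both genotypes. What these prefixes mark is not given, and they were used as a block only in an alternative fit of iBAT.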

Additional observations from a re-analysis of the deposited data

Results flagged for a closer look

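In 6 of 101 groups of 4 or 5 libraries, 1 library stood apart from the rest in the level of a member by Dixon's 95% criterion, which chance meets in about 1 in 20 groups. In wt lung at E12.5, replicate 2 had Dio2 at 4.70 TPM, with the nearest at 3.88 TPM. In wt lung at E15.5, replicate 3 had Prdm16 at 23.8 TPM, with the nearest at 19.8 TPM. In Hoxa5-/- trachea, replicate 3 had Pparg at 3.03 TPM, with the nearest at 2.29 TPM, and replicate 4 had Zfp516 at 60.3 TPM, below the nearest at 65.4 TPM. In Hoxa5-/- diaphragm, replicate 1 had Ebf2 at 46.4 TPM, with the nearest at 38.4 TPM, and replicate 2 had Pparg at 2.14 TPM, with the nearest at 1.57 TPM. Of these groups, that of Ebf2 in diaphragm enters a difference without overlap, and the 3 other Hoxa5-/- libraries, at 37.9 to 38.4 TPM, also lay above the highest wt library at 34.6 TPM.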

How the results depend on the processing

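The number of members called by genotype was 0 in all 7 tissues and stages and stayed 0 under every alternative run (DESeq2, its size factors, other filters on low values, 1 fit per table, the replicate block, the name prefix block in iBAT, no fold minimum and each library left out) with these exceptions. In lung at E12.5 it was 1 by DESeq2 (Ebf2, 1.43, adjusted p = 0.0176) and 1 without a fold minimum (Prdm16). In lung at E15.5 it was 1 with the replicate block (Dio2). In the interaction of genotype and stage in lung it ranged from 0 to 1 with single libraries left out, 1 without Hoxa5-/- replicate 3 at E15.5 (Prdm16). Chosen after seeing the data, the scaling on log2(TPM + 1) turned Prdm16 in iBAT against somites to −0.46, as limma gave it. Of the relations with Ucp1, 1 passed on log2 CPM, 0 on log2(TPM + 1) and 0 on log2(TPM + 0.1), and 0 to 2 with single libraries left out, 2 without Hoxa5-/- iBAT replicate 2 (Elovl3 and Dio2).

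The replicate block was read as an alternative only, since same-numbered libraries did not correlate above 0.1 in every pair of any tissue (0.07 to 0.19 in iBAT, where 4 of 5 correlated best with their own number). With it, the genes called by genotype numbered 2 in iBAT, 2 and 0 in somites at E12.5 and E10.5, 358 in diaphragm, 1 in trachea, 104 in lung at E15.5 and 4 in lung at E12.5, against 1, 1, 4, 107, 3, 22 and 14 without it. Over all alternatives these counts ran from 1 to 6, 1 to 10, 0 to 377, 30 to 406, 0 to 52, 5 to 104 and 4 to 81. The interactions ran from 0 to 43 genes (iBAT and somites), 2 to 2571 (somite stages) and 0 to 18 (lung stages). The causes of these differences were not tested. Depth limits Ucp1 outside iBAT and Elovl3 and Cidea in lung, where 3 counts, the limit that a count of 0 allows, come to 0.0958 to 0.341 TPM for Ucp1 in Hoxa5-/- lung at E12.5.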

Other observations

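Once the genotype means were removed, the genes whose log2 CPM ran closest to that of Ucp1 over the 10 iBAT libraries, among 15211 genes, were Slc25a35, a mitochondrial carrier (r = 0.98), Bckdhb, a subunit of the enzyme that breaks down branched-chain amino acids (r = 0.95), Ei24 (r = 0.95), Cxadr (r = 0.94) and Cpn2 (r = 0.94). Bckdhb read 597 to 758 TPM in these libraries and Slc25a35 13.5 to 27.9 TPM. These values are descriptions over libraries that share a table and, in part, the low Ucp1 values of wt replicates 1 and 5.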
